A study of Oryza sativa with 5 samples.

Results

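Of the 7538 distinct tags that were matched to the rice genome and found in all 5 libraries, 726 were placed at 2 positions and 6812 at a single position. The 726 tags were taken by the number of hits that the deposited table gives, each tag counted once for its copies. No tag of the table had more than 2 hits, so its 8264 positions hold 1452 positions of these 726 tags. Whether tags with more hits were left out by the authors is not given in the sources used here. The shares below thus cover only tags with at most 2 hits. The copies of such a tag are given once for both of its positions and cannot be divided between them. Whether both positions gave copies was not tested.

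The libraries came from seedlings of FU, FR, SY63, MH63 and ZS97, with 1 library per genotype. MH63 (male parent) and ZS97 (female parent) are indica varieties and SY63 is their hybrid. FU (FV in the sample labels) is the hybrid made with an MH63 parent that carried an OsHDT1 over-expression construct under the maize ubiquitin promoter, and FR the hybrid with an OsHDT1 RNAi construct under the CaMV 35S promoter. OsHDT1 encodes a plant-specific histone deacetylase of the HD2 type. All seedlings were 15 days old and grown with 15 h of light at 30 °C and 9 h of darkness at 25 °C. Which transgenic line gave each library, and whether plants were pooled, is not given in the sources used here. The tests below therefore compare libraries and not genotypes, and all intervals cover counting error only.

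In this assay mRNA is caught by its poly(A) tail, cDNA is cut by NlaIII at CATG, and the 17 bases beside the cut nearest to the tail are read, which gives a tag of 21 bases. A plant genome holds the same short sequence at several places where genes stand in tandem arrays, where segments were duplicated between chromosomes, or where mobile elements were copied. A tag from such a place reports the expression of a sequence and not of one locus. In rice the ends of the short arms of chromosomes 11 and 12 are a well known duplicated segment.

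The tags fell into 3 classes by the way they met the genome and by their last bases. Those that matched both positions without a mismatch and did not end in a run of A numbered 263 (exact tags). Another 133 had 1 mismatch at each position and no such run (mismatched tags). The other 330 ended in 6 or more A (A-ending tags), and 329 of these had 1 mismatch at each position. The exact tags shown first are those on which the results turn, with the CATG of the cut in capitals.
chr3/chr7 tag: CATGtgtatgttgaaacctaa
chr2/chr10 tag: CATGtattgctcatctggtaa
chr9 tandem tag: CATGgatgccattctgtccct
chr1/chr5 exact tag: CATGtgtgtgttcacggttag
chr3/chr10 tag: CATGaggatttctagatgtgt
chr11/chr12 first tag: CATGggaagatgttgaggtag
chr11/chr12 second tag: CATGgttgttttgagaagttc
chr11/chr12 last tag: CATGtcaaatcagggcttaac

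In the mismatched tags the capitals mark the bases that differ from the genome at either position.
chr1/chr5 top tag: cAtgcGtgcgtgtgtacgtgc
chr1/chr5 variant tag: catgtgtgtgttcacggttaA
chr11 tandem tag: caTggtgtttgcacgtaattt
chr12 tandem tag: caTgtgcagttgattagcttc
chr12 distant tag: CatgtggtttctGgctttatg
chr1/chr7 tag: caTgataaataaatGccactt

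In the A-ending tags the capitals mark the final run of A, which reached 14 bases in the longest.
chr6/chr12 A tag: catgttggttAAAAAAAAAAA
chr7/chr12 A tag: catggatAAAAAAAAAAAAAA
chr1/chr3 A tag: catgttttattcAAAAAAAAA
chr2/chr9 A tag: catgttgttAAAAAAAAAAAA
chr3/chr11 A tag: catgatatttttttcAAAAAA
chr9 A tag: catgtttcatttcAAAAAAAA

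Coordinates are printed as deposited, with the end 20 bases after the start. The genome build of these positions, and whether starts count from 0 or 1, are not given in the sources used here, so no gene or exon is named for a position. The study's reference was of japonica rice, whereas the parents are indica varieties, and the part of this in the mismatches and in the number of positions was not tested. The chr1/chr5 top tag was placed at chr1:39681920-39681940 on the minus strand with the mismatch G2A and at chr5:21215282-21215302 on the plus strand with A6G. In each such code the genome's base comes first, then the position counted from 1 at the 5′ end of the tag, then the tag's base, all on the strand of the tag. The chr1/chr5 exact tag and the chr1/chr5 variant tag were placed at the same pair of sites, chr1:24389781-24389801 on the minus strand and chr5:12835232-12835252 on the plus strand, and the variant tag carried G21A at both. The chr9 tandem tag lay on the minus strand at chr9:18524771-18524791 and chr9:18536230-18536250, 11459 bases apart. The chr11 tandem tag lay on the plus strand at chr11:8463712-8463732 and chr11:8474557-8474577 with C3T at both. The chr12 tandem tag lay on the plus strand at chr12:11260562-11260582 and chr12:11275225-11275245 with G3T at both. In these names tandem means only that both positions lay on the same strand within 20 kb. Whether such positions arose by tandem duplication was not tested. The chr3/chr7 tag was placed at chr3:31991169-31991189 and chr7:8602491-8602511, on the minus and the plus strand. The chr6/chr12 A tag was placed at chr6:2369004-2369024 with G9T and at chr12:15572031-15572051 with T19A.

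Tags with 2 positions met the genome with a mismatch more often than tags with 1. A mismatch was recorded for 63.6% of the 726 tags, against 26.0% of the 6812 single-position tags, and no tag had an exact and a mismatched position together. A-ending tags made up 45.5% of the tags with 2 positions and 12.1% of those with 1. Exact tags made up 36.2% and 73.4%. The median GC content of the 17 bases was 35.3% in exact and in mismatched tags and 11.8% in A-ending tags, beside 35.3% in single-position tags. A single base made up at least 60% of the 17 bases in 252 tags, of which 224 were A-ending. Of the 924 mismatched positions, 227 had the mismatch inside CATG, and 50 tags had it there at both positions. The same substitution was recorded at both positions in 88 tags, 61 of them not A-ending and 24 with both positions on 1 chromosome.

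Both positions lay on 1 chromosome in 133 tags and on 2 chromosomes in 593. The share on 1 chromosome was 26.6% of exact tags, 23.3% of mismatched tags and 9.70% of A-ending tags. The classes also differed in distance. The 70 exact tags on 1 chromosome had a median distance of 42.5 kb, with 39 of them within 100 kb and 27 within 20 kb, and 46 lay on the same strand. The 31 mismatched tags had a median distance of 43.0 kb, with 18 within 100 kb. The 32 A-ending tags had a median distance of 11171 kb, and 1 of them lay within 100 kb. The shortest distance was 42 bases.

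**Figure D1:**
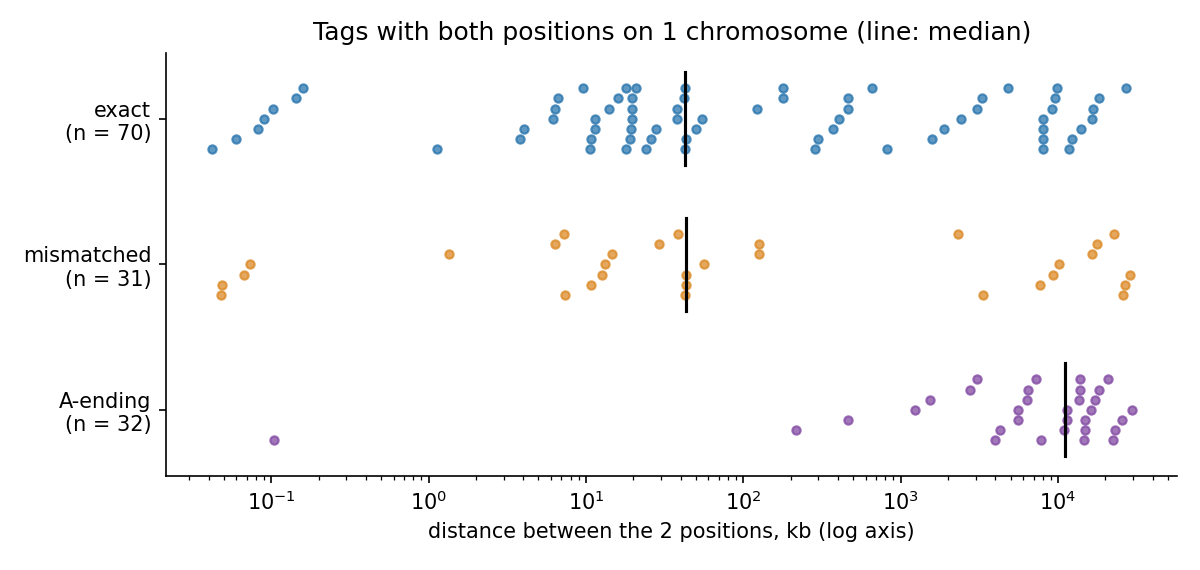
Distance in kb (log axis) between both positions of each tag whose positions lie on 1 chromosome, by class, with 1 point per tag and a line at the median. Exact and mismatched tags have medians of 42.5 and 43.0 kb, while all but 1 of the 32 A-ending tags lie beyond 100 kb.

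Chromosomes 11 and 12 were the most frequent pair, with 31 tags, of which 18 matched exactly. Among exact matches chromosomes 1 and 12 came next with 10 tags, as many as were on chromosomes 3 and 10 or had both positions on chromosome 4. Of the 18, 17 had both starts in the first 3 Mb of the chromosomes, from 41.1 to 2004 kb, all 17 on the same strand in both copies. When they were ordered by position on chromosome 11, 16 of the 17 kept that order on chromosome 12. Another 5 tags with 1 mismatch at each position lay in the same ends. The 3 most abundant exact tags of these ends are named first, second and last by abundance, not by position. The chr11/chr12 first tag was placed at chr11:461804-461824 and chr12:540188-540208, the second tag at chr11:1881949-1881969 and chr12:1805295-1805315, and the last tag at chr11:42754-42774 and chr12:41167-41187.

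Tags of the short-arm ends were of modest abundance. Levels are given in TPM, the copies of a tag scaled to a fixed number of clean tags in every library. Together the 22 tags had 89.2 TPM in FU, 84.2 in FR, 83.8 in SY63, 72.7 in MH63 and 101 in ZS97. The sum was lower in MH63 than in ZS97, with a log2 ratio of −0.47 (95% interval −0.67 to −0.27). For SY63 the log2 ratio was −0.26 (−0.46 to −0.07) over ZS97 and 0.21 (−0.002 to 0.41) over MH63. The interval of FU over SY63 ran from −0.11 to 0.29 and that of FR over SY63 from −0.19 to 0.21. Of the 22 tags, 2 (9.09%) were called in SY63 over MH63, 1 (4.55%) in SY63 over ZS97 and 3 (13.6%) in MH63 over ZS97. Over all 7538 tags these shares were 6.79%, 1.21% and 8.13%. The chr11/chr12 first tag had 127 copies in FU, 115 in FR, 129 in SY63, 56 in MH63 and 84 in ZS97, and was called higher in SY63 than in MH63 (log2 ratio 1.25, 0.79 to 1.73). The second tag had 53 copies in FU, 75 in FR, 91 in SY63, 36 in MH63 and 78 in ZS97, and was likewise called higher in SY63 than in MH63 (log2 ratio 1.39, 0.81 to 1.99). For both tags MH63 was the lowest of the 5 libraries. The last tag had 29, 41, 20, 24 and 27 copies in FU, FR, SY63, MH63 and ZS97, and was called in no comparison.

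Some tags lay beside one another at both of their positions. In 52 groups, which held 133 tags, 113 of them with 2 exact matches, each tag was within 5 kb of another at both positions. Most groups were pairs (38), 7 held 3 tags, 3 held 4 and 4 held 6. In 22 groups the tags came from both strands. The groups of 6 lay on chromosomes 2 and 10, 3 and 7, 1 and 12, and 3 and 10. In the group on chromosomes 2 and 10, which included the chr2/chr10 tag, the starts spanned 3475 bases in one copy and 3474 in the other. In the group on chromosomes 3 and 10 they spanned 2997 and 2996 bases, and in that on chromosomes 3 and 7 they spanned 418 bases in both copies.

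These groups differed in the libraries where they stood highest. The group on chromosomes 2 and 10 had 108 TPM in FU, 120 in FR, 156 in SY63, 149 in MH63 and 183 in ZS97. The group on chromosomes 3 and 7 had 120 in FU, 157 in FR, 139 in SY63, 326 in MH63 and 98.2 in ZS97. The chr3/chr7 tag alone gave 303 of the 326 in MH63. The group on chromosomes 1 and 12 had 125 in FU, 123 in FR, 118 in SY63, 198 in MH63 and 140 in ZS97. The group on chromosomes 3 and 10 had 54.1 in FU, 27.1 in FR, 23.7 in SY63, 65.5 in MH63 and 16.9 in ZS97. ZS97 was thus the highest library for the group on chromosomes 2 and 10, and MH63 for the others.

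The levels were compared next. The libraries held between 4821637 and 5022081 clean tags, and the whole genome table took up between 4.62% (FU) and 6.34% (MH63) of them. The lowest entry was 2 copies in every library, so a tag missing from any library is outside the table. Tags of OsHDT1, the targeted gene (LOC_Os05g51830), stood at 1574 TPM in FU, 28.3 in FR, 88.1 in SY63, 524 in MH63 and 61.3 in ZS97, in the direction of the FU and FR labels.

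The 726 tags summed to 5036 TPM in FU (95% Poisson interval 4973 to 5100), 7016 in FR (6943 to 7090), 6303 in SY63 (6233 to 6374), 9581 in MH63 (9496 to 9667) and 7554 in ZS97 (7478 to 7631). No intervals overlapped. They made up 10.9% of all copies in the table in FU, 13.4% in FR, 12.8% in SY63, 15.1% in MH63 and 13.7% in ZS97. Without the 10 most abundant tags the sums were 3449 in FU, 4830 in FR, 4097 in SY63, 5190 in MH63 and 5291 in ZS97, so that MH63 no longer stood highest. These 10 tags held 31.5% of the copies of the 726 in FU, 31.2% in FR, 35.0% in SY63, 45.8% in MH63 and 30.0% in ZS97.

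The classes took different shares of these sums. Exact tags had 2005 TPM in FU, 1889 in FR, 1992 in SY63, 2755 in MH63 and 2082 in ZS97. MH63 stood above the others on this scale. As a share of the copies in the table, exact tags made up 4.34% in FU, 3.60% in FR, 4.03% in SY63, 4.35% in MH63 and 3.79% in ZS97, and MH63 did not stand apart. Mismatched tags had 1238 in FU, 1510 in FR, 1634 in SY63, 4055 in MH63 and 1349 in ZS97, and the chr1/chr5 top tag alone gave 3121 of the MH63 value. A-ending tags had 1793 in FU, 3617 in FR, 2677 in SY63, 2771 in MH63 and 4123 in ZS97. In this class ZS97 and FR were high and FU was low.

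**Figure D2:**
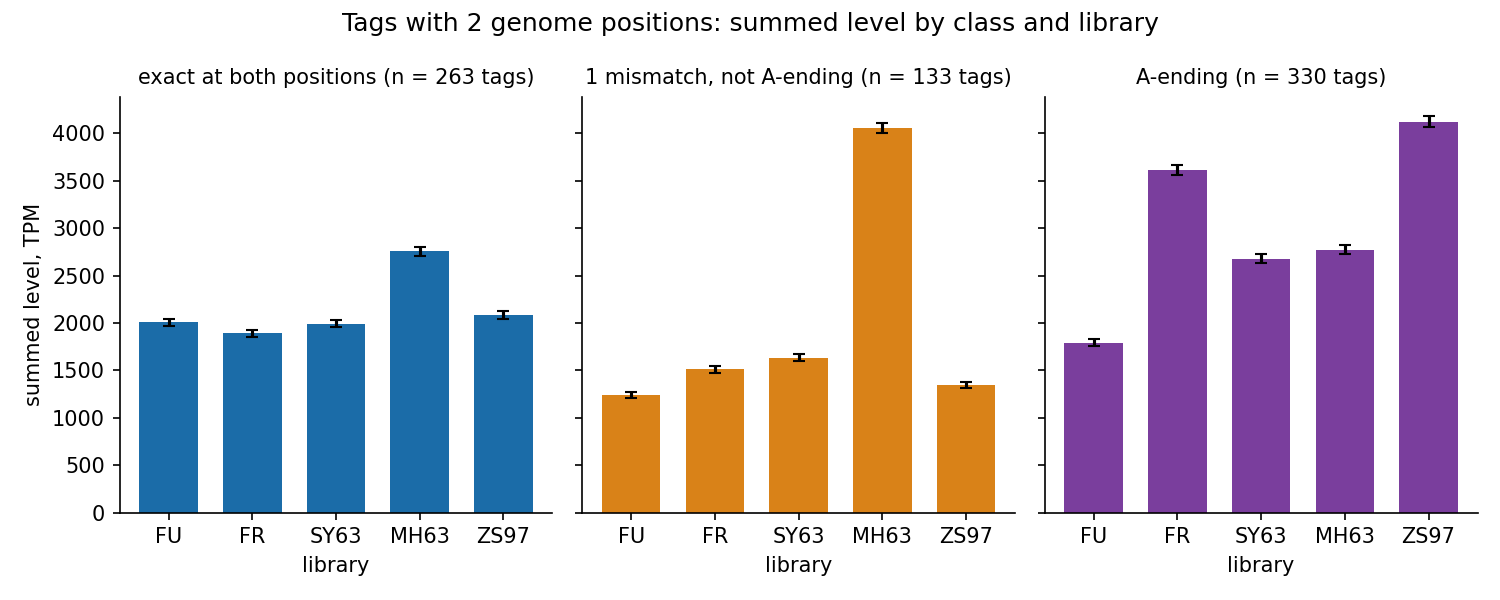
Summed level in TPM of each class in each library, with 95% Poisson intervals for counting error as bars. Exact tags range from 1889 (FR) to 2755 (MH63), mismatched tags peak at 4055 in MH63, and A-ending tags range from 1793 (FU) to 4123 (ZS97).

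Single members were also counted by library. The library with the highest level was MH63 for 99 of the 263 exact tags, with 53 for FU, 33 for FR, 31 for SY63 and 47 for ZS97. MH63 was also the library where most exact tags stood lowest, namely 69, with 46 for FU, 53 for FR, 48 for SY63 and 47 for ZS97. Of the 133 mismatched tags, 40 were highest in MH63, 35 in ZS97, 24 in FR, 18 in SY63 and 16 in FU. Of the 330 A-ending tags, 134 were highest in ZS97 and 92 in FR, and 173 were lowest in FU. These counts describe the libraries and were not tested. They rest on the scaling to clean tags, of which the whole table took up most in MH63 (6.34%). The same counts were not made for single-position tags.

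The most abundant tag of all was the chr1/chr5 top tag. It had 3203 copies in FU, 4652 in FR, 5121 in SY63, 15676 in MH63 and 3367 in ZS97, which gave 664, 928, 1054, 3121 and 679 TPM in that order of libraries. It was called lower in SY63 than in MH63 and higher in MH63 than in ZS97, with log2 ratios of −1.57 (−1.61 to −1.52) and 2.20 (2.15 to 2.25). The chr6/chr12 A tag followed with 191 TPM in FU, 503 in FR, 339 in SY63, 136 in MH63 and 666 in ZS97. Its order of libraries was the reverse for the parents, with a log2 ratio of −2.30 (−2.42 to −2.18) for MH63 over ZS97. The chr3/chr7 tag had 99.8 TPM in FU, 134 in FR, 123 in SY63, 303 in MH63 and 85.3 in ZS97, with MH63 highest.

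The chr7/chr12 A tag had 404 copies in FU, 707 in FR, 531 in SY63, 940 in MH63 and 631 in ZS97. The chr2/chr10 tag had 339 copies in FU, 402 in FR, 549 in SY63, 613 in MH63 and 667 in ZS97. Neither tag was called in any of the comparisons. The chr1/chr3 A tag had 242 copies in FU, 466 in FR, 482 in SY63, 229 in MH63 and 912 in ZS97, with FU and MH63 lowest. It was called higher in SY63 than in MH63 (log2 ratio 1.12, 0.89 to 1.36) and lower in MH63 than in ZS97 (log2 ratio −2.01, −2.23 to −1.80).

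**Figure D3:**
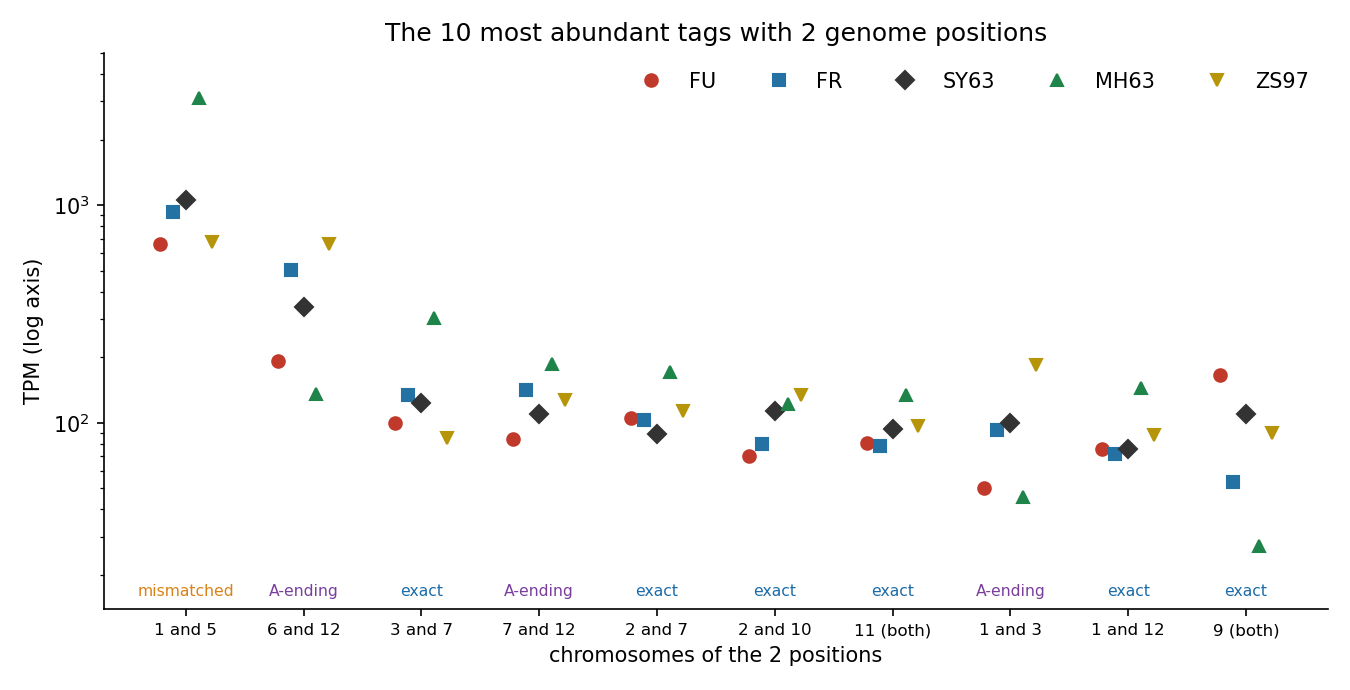
Level in TPM (log axis) of the 10 most abundant tags with 2 positions, labelled by the chromosomes of their positions and by class, with 1 marker per library. MH63 stands highest for the tag on chromosomes 1 and 5 (3121) and lowest for that on chromosomes 6 and 12 (136).

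Few tags separated FU from SY63. A tag was called at a false discovery rate of at most 0.001 over all 7538 tags, by the exact test of Audic and Claverie, with an absolute log2 ratio of at least 1. Of the 726 tags, 4 were called higher and 1 lower in FU, which is 0.689% of them, where 1.19% of all 7538 tags were called (0.677% higher and 0.517% lower). With tags of fewer than 20 copies over both libraries left out, 8 were called, 4 higher and 4 lower. The chr12 distant tag, placed at chr12:23356980-23357000 and chr12:23482415-23482435, had 90 copies in FU and 26 in SY63, with a log2 ratio of 1.80 (1.16 to 2.49). The chr1/chr7 tag, at chr1:3844408-3844428 and chr7:5934419-5934439, had 83 copies in FU and 27 in SY63, with a log2 ratio of 1.63 (0.99 to 2.31). The chr3/chr10 tag, at chr3:21181168-21181188 and chr10:12966685-12966705, had 157 copies in FU and 54 in SY63, with a log2 ratio of 1.55 (1.10 to 2.02). In FR these tags had 22, 24 and 80 copies. The other called tags had fewer than 20 copies in a library. None of the called tags that were higher in FU was A-ending, and the tag called lower was. Of the 824 single-position A-ending tags, 0 were called higher in FU and 10 lower (1.21%, beside 0.303% of the 330 with 2 positions).

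Between FR and SY63, 4 tags were called higher and 3 lower, which is 0.964% of the 726 beside 0.584% of all tags (0.332% higher and 0.252% lower). The 4 higher ones were all A-ending (1.21% of 330) and the 3 lower ones all exact (1.14% of 263). Of single-position tags, 4 A-ending ones were called higher and 0 lower (0.485% of 824). Among their exact ones 13 were called higher and 15 lower (0.56% of 5000). The chr3/chr11 A tag, at chr3:1301903-1301923 and chr11:1437752-1437772, had 128 copies in FR and 55 in SY63, with a log2 ratio of 1.17 (0.71 to 1.66). The chr2/chr9 A tag, at chr2:8809554-8809574 and chr9:19461563-19461583, had 231 copies in FR and 104 in SY63, with a log2 ratio of 1.11 (0.77 to 1.45). In the other direction, the chr9 tandem tag had 268 copies in FR and 531 in SY63, with a log2 ratio of −1.03 (−1.25 to −0.82). In FU it had 799 copies, which was not called against SY63 (log2 ratio 0.60, 0.44 to 0.76). Among the 3 tags called lower in FR, whose log2 ratios ranged from −2.10 to −1.03, the chr9 tandem tag changed least. The chr1/chr5 exact tag was also called lower in FR, with 16 copies in FR and 63 in SY63 (log2 ratio −2.02, −2.91 to −1.21). None of the calls of FU or FR against SY63 was kept when a coefficient of variation of 0.2 was assumed between libraries.

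The hybrid differed from MH63 in more tags than from ZS97. In SY63 over MH63, 22 tags were called higher and 40 lower (8.54% of the 726, beside 6.79% of all tags, 2% higher and 4.79% lower). In SY63 over ZS97, 1 was called higher and 10 lower (1.52% beside 1.21% of all tags, 0.491% higher and 0.716% lower). Most calls against MH63 were of exact tags (12 higher and 25 lower, 14.1% of 263). Most against ZS97 were of A-ending tags (1 higher and 9 lower, 3.03% of 330). In single-position tags the exact calls against MH63 were 97 higher and 261 lower (7.16% of 5000). Their A-ending calls against ZS97 were 3 higher and 10 lower (1.58% of 824), beside 26 higher and 26 lower in exact tags (1.04% of 5000). The part of the final A run in these values was not tested. Against the mid-parent, taken as the mean of the parental levels, 1 tag was called higher in SY63 and 21 lower (3.03% beside 2.51% of all tags, 0.69% higher and 1.82% lower). The balance of directions depended on the scaling to clean tags, under which the median log2 ratio over all 7538 tags was −0.15 for SY63 over MH63, −0.14 for SY63 over ZS97 and −0.23 for SY63 over the mid-parent. With TMM factors 27 tags were called higher and 30 lower than in MH63, 1 higher and 4 lower than in ZS97, and 3 higher and 7 lower than the mid-parent. Scaled to the copies of the table, 33 were higher and 24 lower than in MH63, and the exact tags alone divided into 15 higher and 16 lower.

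The tag that fell furthest in SY63 against MH63 among those with at least 20 copies in both libraries was the chr11 tandem tag. It had 69 copies in FU, 45 in FR, 79 in SY63, 1102 in MH63 and 86 in ZS97. The log2 ratio of SY63 over MH63 was −3.75 (−4.10 to −3.42), and that of SY63 over ZS97 was −0.09 (−0.55 to 0.36). MH63 alone was high. The chr1/chr5 exact tag had 29 copies in FU, 16 in FR, 63 in SY63, 438 in MH63 and 30 in ZS97, with a log2 ratio of −2.75 (−3.15 to −2.37) for SY63 over MH63. The chr1/chr5 variant tag, placed at the same sites, had 20 copies in FU, 12 in FR, 42 in SY63, 222 in MH63 and 25 in ZS97. Its log2 ratio of SY63 over MH63 was −2.35 (−2.87 to −1.87). These tags differ from each other in a single base, and MH63 was the highest library for both.

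Tags of the opposite pattern were low in MH63. The chr12 tandem tag had 150 copies in FU, 132 in FR, 134 in SY63, 33 in MH63 and 89 in ZS97, and was called higher in SY63 than in MH63 (log2 ratio 2.07, 1.51 to 2.67). It was the 1 tag called higher in SY63 than the mid-parent (log2 ratio 1.17). The chr9 tandem tag had 531 copies in SY63, 136 in MH63 and 443 in ZS97, with log2 ratios of 2.01 (1.74 to 2.30) over MH63 and 0.29 (0.11 to 0.48) over ZS97. The 1 tag called higher in SY63 than in ZS97 was the chr2/chr9 A tag, with 104 copies in SY63, 406 in MH63 and 38 in ZS97.

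The parents differed from each other in 81 tags, 39 higher and 42 lower in MH63 than in ZS97, which is 11.2% of the 726 beside 8.13% of all tags (4.55% higher and 3.58% lower). Of the exact tags, 28 were higher in MH63 and 13 lower (15.6% of 263). Of the mismatched tags, 7 were higher and 8 lower (11.3% of 133). Of the A-ending tags, 4 were higher and 21 lower (7.58% of 330). Single-position tags divided in the same directions. Among their exact tags 254 were higher and 157 lower (8.22% of 5000), and among A-ending tags 11 and 38 (5.95% of 824). Scaled to the copies of the table, 28 tags were higher and 59 lower in all, with 22 higher and 15 lower among exact tags and 3 higher and 35 lower among A-ending tags. The chr1/chr5 exact tag had the largest ratio in favour of MH63 among tags with at least 20 copies in both (log2 ratio 3.85, 3.31 to 4.43), then the chr11 tandem tag (3.66, 3.34 to 3.99) and the chr2/chr9 A tag (3.40, 2.92 to 3.92). The intervals of these neighbours overlap. In favour of ZS97 the chr9 A tag led, with 20 copies in MH63 and 148 in ZS97 (log2 ratio −2.91, −3.66 to −2.23). It was placed at chr9:16423100-16423120 and chr9:22012598-22012618.

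**Figure D4:**
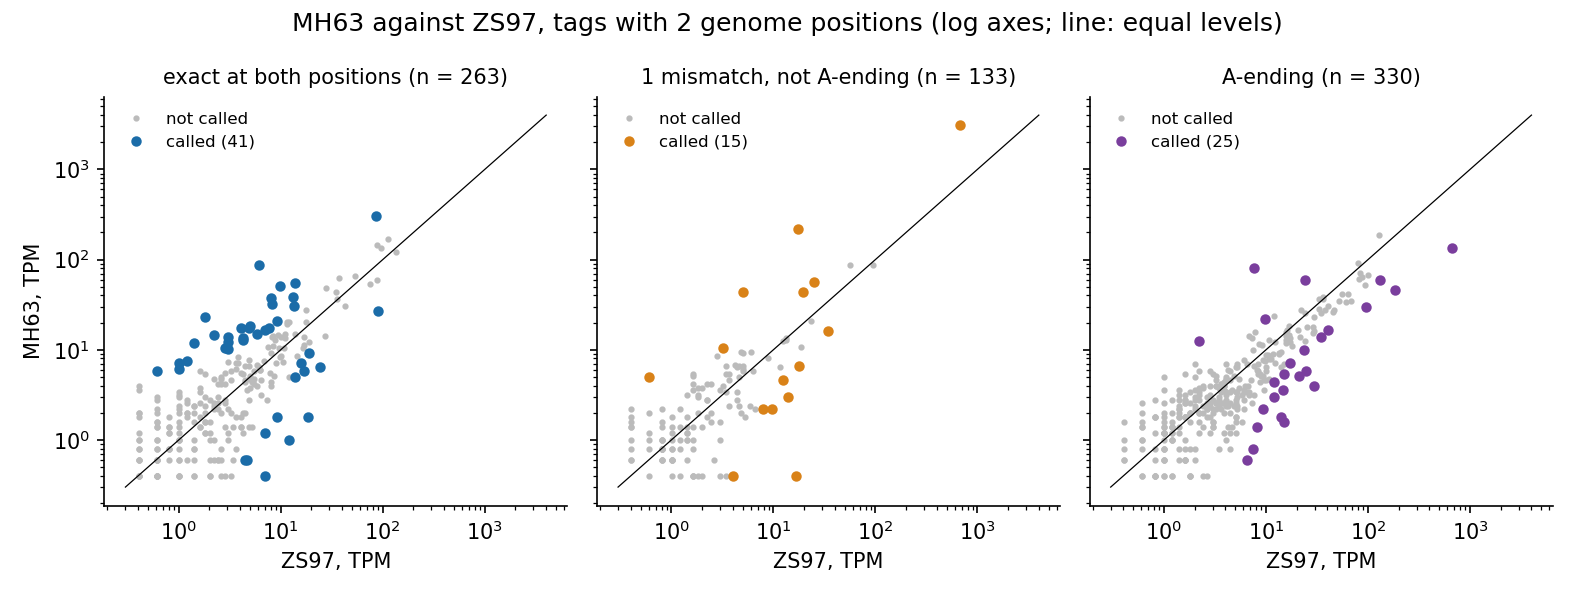
Level in TPM in MH63 (vertical) against ZS97 (horizontal), both on log axes, for each tag with 2 positions, in a panel per class; coloured points are the tags called and the line marks equal levels. Called exact tags lie mostly above the line (28 of 41) and called A-ending tags mostly below it (21 of 25). Of single-position tags, not drawn, 254 of 411 called exact tags were higher in MH63 and 38 of 49 called A-ending tags were lower.

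The tags were also compared by the number of chromosomes hit. In MH63 over ZS97, 18 of the 133 tags on 1 chromosome (13.5%) and 63 of the 593 tags on 2 chromosomes (10.6%) were called. In SY63 over MH63, 13 (9.77%) and 49 (8.26%) were called. Tags on 1 chromosome summed to 765 TPM in FU, 657 in FR, 724 in SY63, 946 in MH63 and 800 in ZS97. Tags on 2 chromosomes summed to 4271 in FU, 6359 in FR, 5579 in SY63, 8635 in MH63 and 6753 in ZS97. The share of A-ending tags differs between these sets, as given above, and its part in the sums was not tested.

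Over all 726 tags the median log2 ratio was −0.24 for FU over SY63 and 0.22 for FR over SY63, beside 0.01 and 0.03 over all 7538 tags. These medians moved with the final A run. In FU over SY63 the median was 0.11 in the 232 tags that did not end in A, 0.01 in the 126 with 1 or 2 final A, −0.29 in the 38 with 3 to 5, −0.34 in the 72 with 6 to 8, −0.52 in the 172 with 9 to 11, and −0.67 in the 86 with 12 or more. In FR over SY63 the medians in the same bins were −0.05, 0.10, 0.11, 0.17, 0.54 and 0.40. FU and FR are each set against the same SY63 library, so the pair of series is not independent. A tag with equal copies in both libraries has a log2 ratio of 0.01 in FU over SY63 and −0.05 in FR over SY63. The sign of a median at these values follows from the totals of clean tags.

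Single-position tags gave similar medians in the same bins. In FU over SY63 their median was 0.01 in the 3830 tags without a final A and −0.61 in the 128 with 12 or more, and in FR over SY63 −0.05 and 0.34. Single-position tags thus showed the shift as well. Among tags with 2 positions and 100 or more copies in all, the medians for FU over SY63 were 0.09 in the 81 without a final A and −0.65 in the 51 with 12 or more. Without the A-ending tags, the median over the other 396 was 0.01 for FU over SY63 and −0.05 for FR over SY63. Both are the ratios of a tag with equal copies in both libraries. In the A-ending class 239 of 330 tags were below SY63 in FU and 247 were above SY63 in FR, yet 1 and 4 tags passed the test. Under the other scalings the class medians stayed between −0.45 and −0.41 for FU over SY63 and between 0.35 and 0.37 for FR over SY63. Summed, A-ending tags gave log2 ratios of −0.58 (−0.62 to −0.54) for FU over SY63 and 0.43 (0.40 to 0.47) for FR over SY63, and single-position A-ending tags gave −0.44 (−0.47 to −0.42) and 0.43 (0.41 to 0.45). Exact tags with 2 positions gave 0.01 (−0.03 to 0.05) and −0.08 (−0.12 to −0.04). With 1 library each, a difference between preparations of the libraries and a difference between genotypes cannot be told apart.

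**Figure D5:**
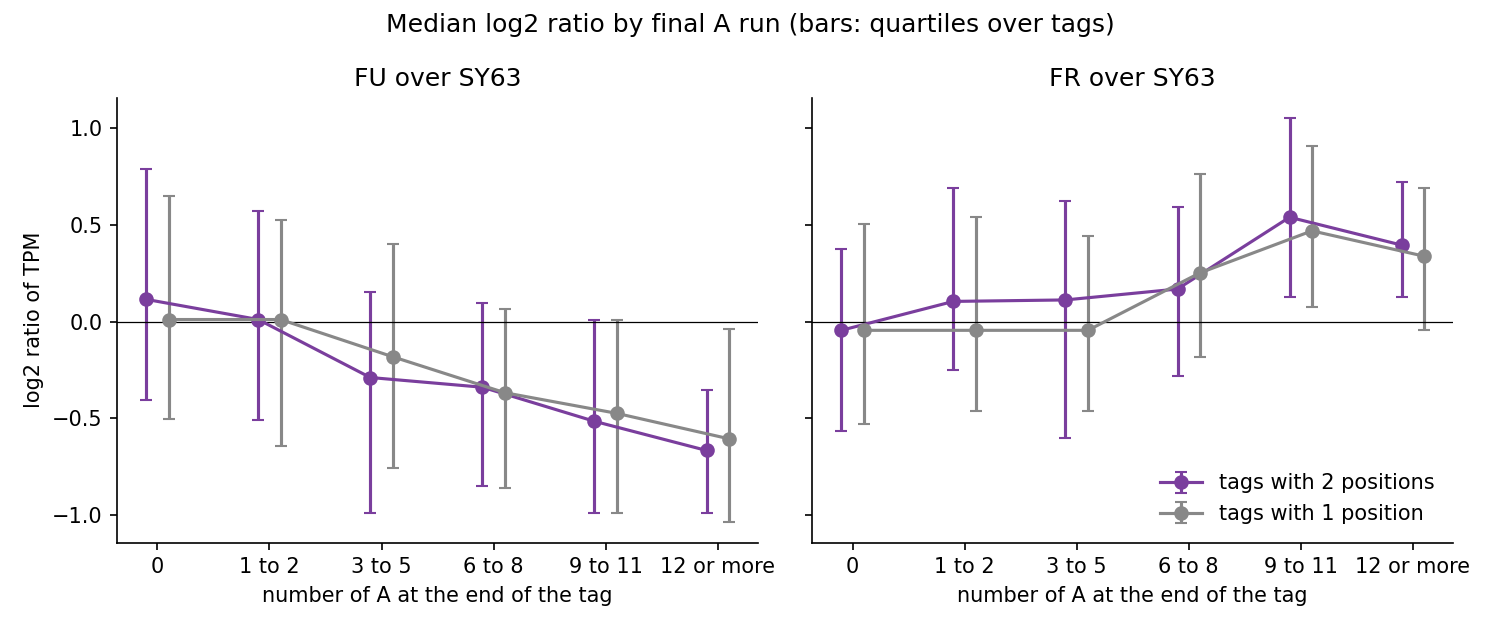
Median log2 ratio of TPM by the number of A at the end of the tag, for FU over SY63 (left) and FR over SY63 (right), with quartiles over tags as bars, for tags with 2 positions and with 1 position. At 12 or more final A the medians of tags with 2 positions are −0.67 and 0.40, close to those of single-position tags (−0.61 and 0.34).

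The ratios of SY63 over ZS97 moved with the A run as well, with medians of −0.12, −0.14, −0.17, −0.32, −0.54 and −0.61 in the same bins. Single-position tags moved likewise, with −0.04, −0.04, −0.19, −0.33, −0.39 and −0.53. For tags with 2 positions the ratios of MH63 over ZS97 did not move steadily, with medians of −0.02, 0.30, −0.01, −0.47, −0.29 and −0.22. In the bin of 6 to 8 final A single-position tags had a median of −0.09 for MH63 over ZS97, and in that of 12 or more −0.22. Summed, A-ending tags were lower in SY63 than in ZS97 by a log2 ratio of −0.62 (−0.65 to −0.59). For SY63 over MH63 the log2 ratio of the sums was −0.05 (−0.08 to −0.02), and −0.17 (−0.21 to −0.14) without the chr6/chr12 A tag, the most abundant of the class, an alternative chosen after seeing the data. The median over the class was −0.26, with 201 of the 330 tags below MH63 in SY63.

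Counts set a limit to these calls. The median of the 726 tags was 10 copies in FU, 13 in FR, 11 in SY63, 14 in MH63 and 15 in ZS97. The lowest sum of copies at which a tag was called was 53 over FU and SY63 and 22 over MH63 and ZS97. In all, 101 tags were called in at least 1 of the 6 comparisons and 625 in none, which is 13.9% of the 726 beside 11.6% (878) of all 7538 tags. At least 20 copies summed over FU and SY63 were held by 380 of the 726 tags, and 471 held as many over MH63 and ZS97. Below such sums a change of the size of the threshold was not detectable at this depth, and sums above them did not ensure a call. The chr1/chr5 exact tag, with 29 copies in FU and 63 in SY63, had a log2 ratio of −1.11 and was not called.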

How the data were processed

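Tags were read from 5 libraries, 1 per genotype, cut with NlaIII at CATG and with MmeI. The authors counted the copies of each clean tag and deposited these counts without normalization for the tags found in all 5 libraries, with each position in the genome, its strand and its mismatch (at most 1). For TPM the authors divided each count by the library's clean tags and deposited the result. The study names the japonica genome as its reference and the cDNAs of the MSU annotation version 6.1 for the counts per gene. From those, the authors removed tags that hit the cDNAs of more than 1 gene. Whether a tag with 2 genome positions met that rule, the aligner, and the genome build of this match are not given in the sources used here. Deposited gene tables were used for OsHDT1 and the totals only. Their columns of log2 ratios, p-values and false discovery rates, and the shorter tables of the authors' selections, were not used. The totals of clean tags are the whole numbers that give every deposited TPM from its count. The RefSeq gene table at hand is of the assembly ASM3414082v1 and was not used, since its build could not be matched to the files.

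Each tag's counts in a pair of libraries were tested by the Audic and Claverie method (exact, 2-sided), adjusted by Benjamini-Hochberg over 7538 tags, and called at a false discovery rate up to 0.001 where the log2 ratio reached 1 in either direction. No low-count filter was used. For the mid-parent the counts of both parents were summed and set against SY63. Sums have exact Poisson intervals and ratios exact binomial ones (95%). These tags are PCR products without molecular identifiers, so intervals cover counting error only. The test was checked on simulated counts. Alternatives were TMM (edgeR 4.0.16), DESeq2 size factors (1.42.0), scaling to the table, a filter, Fisher's exact test and assumed coefficients of variation of 0.2 and 0.4.

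Tags were named by rule: the 10 with the highest mean level, and per comparison the 3 strongest ratios upward and downward, from called tags that had 20 or more copies in each library of the pair. A rule for the tags with the most hits could not rank them, as all had 2. Not every tag of the rule is described, and 1 is not reported here. The 3 tags of the ends of chromosomes 11 and 12 were chosen after their values were seen. The members and lists were chosen with earlier results of these data known. The classes, the limit of 6 final A and its bins, the first 3 Mb, the 5 kb between neighbours, the 100 and 20 kb distances and the minimum of 100 copies were chosen after seeing the data. Analyses used Python 3.11.15, SciPy 1.17.1 and R 4.3.3.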

Additional observations from a re-analysis of the deposited data

How the results depend on the processing

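No paired analysis was possible because each genotype has 1 library and the labels give no replicate numbers. Restricting the tags to 3 or more hits gave no value, since none has more than 2.

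Counts of called tags kept within 1.5 times under Fisher's exact test in all 6 comparisons. With a minimum of 20 copies summed over both libraries, 8 tags (4 higher, 4 lower) were called in FU over SY63 in place of 5 (4 higher, 1 lower), by construction with fewer tags tested, and the other comparisons kept within 1.5 times. Scaling by TMM, by DESeq2 size factors or to the copies of the table left 5 tags in SY63 over ZS97 in place of 11, and 10, 10 and 9 in SY63 over the mid-parent in place of 22. These scalings moved the median of all tags by 0.14, 0.16 and 0.36 on the log2 scale in SY63 over MH63. With an assumed coefficient of variation of 0.2, 0 tags were called in FU over SY63, FR over SY63 and SY63 over ZS97, 7 in SY63 over MH63, 19 in MH63 over ZS97 and 1 in SY63 over the mid-parent. With 0.4, 0 were called in all 6. Of the 27 calls named by rule, 17 were lost at 0.2 and 27 at 0.4, 2 were lost under each of the 3 scalings, and none changed direction.

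Without the A-ending tags, an alternative chosen after seeing the data, 3 tags were called in FR over SY63, 1 in SY63 over ZS97 and 14 in SY63 over the mid-parent. The median log2 ratio then became 0.011 for FU over SY63 (−0.24 with them), −0.045 for FR over SY63 (0.22), −0.13 for SY63 over ZS97 (−0.32), 0.10 for MH63 over ZS97 (−0.02) and −0.28 for SY63 over the mid-parent (−0.34). Scaled to the copies of the table, the median was −0.15 for FU over SY63, 0.13 for FR over SY63, 0.086 for SY63 over MH63 (−0.27 per clean tag, a change of sign), −0.17 for SY63 over ZS97, −0.22 for MH63 over ZS97 and −0.10 for SY63 over the mid-parent. Without the 10 most abundant tags the medians were −0.24, 0.22, −0.27, −0.33, −0.019 and −0.34 in the same order of comparisons. A tag with equal copies in both libraries has a log2 ratio of 0.011 in FU over SY63 and −0.045 in FR over SY63. In MH63 over ZS97 that ratio is −0.019.

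The tags with 2 positions took 0.504% of the clean tags in FU, 0.702% in FR, 0.630% in SY63, 0.958% in MH63 and 0.755% in ZS97. Without the 10 most abundant these shares were 0.345%, 0.483%, 0.410%, 0.519% and 0.529% in the same order, and without A-ending tags 0.324%, 0.340%, 0.363%, 0.681% and 0.343%. Of the copies in the table they took 10.9%, 13.4%, 12.8%, 15.1% and 13.7%. MH63 was the highest library in each of these but the one without the 10 most abundant tags.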

Other observations

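A cut site can give a tag on either strand. The table held 7305 such sites, of which 514 were read on both strands. Sites of this kind gave 60 of the 726 tags with 2 positions, 46 exact, 10 mismatched and 4 A-ending, and for 28 of them both positions were read on both strands. The counting of strands by the authors is not given in the sources used here.

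Another tag of the table that differed in 1 base existed for 251 of the 726 tags, namely 231 of the 330 A-ending, 14 of the 133 mismatched and 6 of the 263 exact tags. In 33 cases such a neighbour had a mean level at least 10 times as high.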
